A study of Bos taurus with 12 samples.

Results

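The centromere-side ends of the bovine autosomes were described here by the methylation of their CpG sites in dermal fibroblasts. Cattle autosomes are acrocentric, with the centromere placed at the low coordinates of each chromosome. The end of a chromosome was therefore taken as the stretch from its first tested position to 2 Mb beyond it. This gave 29 ends, 1 for each of the autosomes 1 to 29, with 27180 of the 838705 CpG positions in the deposited table. They were 3.33% of the 816482 autosomal positions and took up 2.31% of the span between the first and last tested positions. The first tested position lay between position 91 (chromosome 19) and position 187816 (chromosome 17) of the bosTau8 assembly. Positions are counted from 1. What separates these windows from the centromere itself is not shown by the table, so the name stands for a place in the assembly.

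The data came from reduced representation bisulfite sequencing (RRBS), which digests genomic DNA at short recognition sequences that often hold a CpG, converts unmethylated cytosines and reads the fragments. The 12 cultures were primary dermal fibroblasts of 6 Holstein heifers at passage 6, untreated, and each animal was sampled at 5 months of age (6 young cultures) and again at 16 months (6 old cultures). The age comparison was thus paired by animal, and each animal gave 1 culture at each age. For every position and strand, the deposited methylation ratio is the share of reads with an unconverted cytosine, and the deposited coverage is the number of reads behind it.

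Next to the centromeres of cattle lie long arrays of satellite DNA, which are rich in CpG and are as a rule densely methylated in somatic cells. Genome assemblies hold only part of such arrays. Elsewhere in the genome, CpG islands at gene starts are mostly free of methylation, while CpGs between and within genes are mostly methylated.

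The tested positions carried between 19007741 and 31643295 read counts per culture. Old culture 2 was the shallowest and separated from the other 11 cultures at the first split of complete linkage, in the ends and over all autosomes alike. The end sites had a median coverage of 12 to 19 reads, depending on the culture. A minimum of 10 reads in all cultures was met by 9996 end sites (36.8%) and by 32.3% of the sites in the rest of the autosomes.

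The centromere-side ends were more methylated than the rest of the same chromosomes in every culture. The mean ratio of the end sites was 0.322 ± 0.00491 (SD, n = 6) in young and 0.317 ± 0.00533 (n = 6) in old cultures. In the rest of the autosomes it was 0.235 ± 0.00526 and 0.230 ± 0.00424. Young cultures ranged from 0.315 to 0.327 at the ends, with a median of 0.323, and old cultures from 0.309 to 0.325, with a median of 0.317. The lowest end value of any culture was thus above the highest value in the rest, which was 0.242. Averaged over the cultures of an animal, the ends exceeded the rest by 0.0867 ± 0.00117 (higher in 6 of 6 animals). A two-sided exact permutation test that flips the sign of each animal's value gave P = 0.031, the smallest that 6 animals allow. Over the 7 comparisons of this kind, the Benjamini-Hochberg adjusted P was 0.0547, so that none of them passed 0.05 after adjustment. Every comparison at the smallest possible P had this adjusted value. It follows from that floor and from how many comparisons reached it, not from the size of a difference. The excess was 0.209 when the window was 1 Mb, 0.0334 when it was 5 Mb and 0.141 when sites were weighted by their reads. Without animal 2, which includes the culture that stood apart, the ends exceeded the rest by 0.0871. The animals are the replicates of this test, and the number of sites does not enter it. Its P, like those of the comparisons between parts of the genome below, measures agreement among animals and not among chromosomes. By chromosome, the end lay above the rest on 19 and below it on 10.

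The ends held fewer sites without methylation. Of their sites 51.2% had a mean ratio below 0.1, against 64.1% in the rest, and 42.9% lay between 0.1 and 0.9, against 31.2%. Sites above 0.9 were 5.93% and 4.66%. The median site had a ratio of 0.0792 at the ends and 0.0258 in the rest, so in both places the typical tested site was nearly unmethylated. Sites were then grouped by the number of tested positions within 250 bp, which is high in CpG-dense stretches. The ends exceeded the rest in each of the 4 groups, by 0.0276 among sites with 0 to 4 neighbours and by 0.122, 0.0894 and 0.0632 in the denser groups (6 of 6 animals and exact P = 0.031 in each).

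Compared with the opposite, telomere-side ends of the same chromosomes, the centromere-side ends also had the higher level. The last 2 Mb held 56411 sites, more than the first 2 Mb, with a mean ratio of 0.264 ± 0.00754 in young and 0.255 ± 0.00309 in old cultures. The difference between the opposite ends was 0.0598 ± 0.00392 (6 of 6 animals, exact P = 0.031, adjusted P = 0.0547). With at least 10 reads in every culture it was 0.270, and as a mean over the 29 chromosomes it was 0.0370.

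Methylation was not even along the first 2 Mb. Over the pooled sites it was highest in the positions nearest to the start of the chromosome and lower than in the rest of the autosomes from 1 to 2 Mb. The 3189 sites in the first 50 kb had a mean ratio of 0.634, and those from 50 to 100 kb 0.591. From 100 to 250 kb it was 0.378, from 250 to 500 kb 0.416 and from 500 to 1000 kb 0.334. The lowest values of the pooled sites stood at 1 to 1.5 Mb (0.174) and 1.5 to 2 Mb (0.150). With equal weight for the chromosomes the course was flatter, from 0.475 in the first 50 kb to 0.258 at 1 to 1.5 Mb and 0.275 at 1.5 to 2 Mb, and these last values lay above the mean of the rests (0.232), so the direction against the rest turned. Beyond the window the pooled ratio was 0.208 at 2 to 2.5 Mb and 0.248 at 10 to 20 Mb. The 12 cultures gave the same course, with a range among them of 0.616 to 0.662 in the first 50 kb and of 0.147 to 0.157 at 1.5 to 2 Mb.

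**Figure D1:**
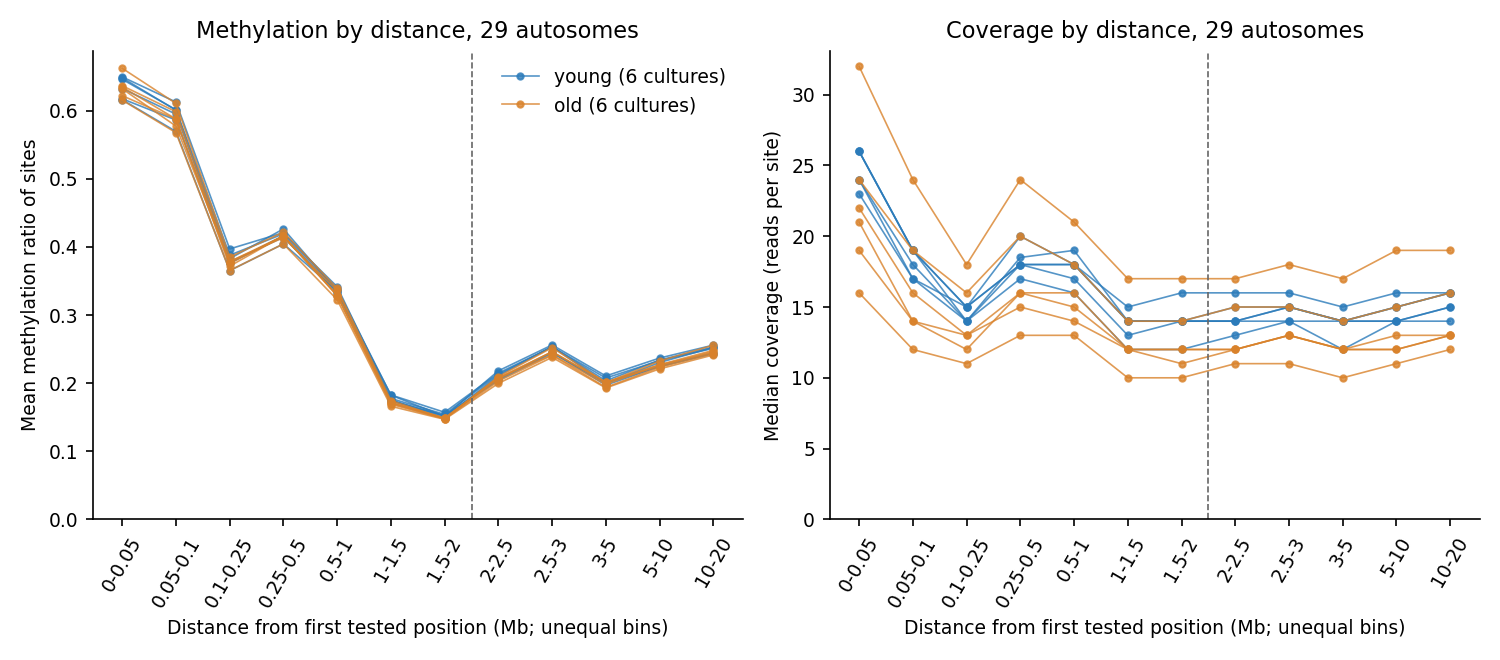
Mean methylation ratio of the pooled sites (left) and median coverage in reads per site (right) against the distance from the first tested position, in unequal bins of Mb, over 29 autosomes; each line is 1 culture, blue for young and orange for old, and the dashed line marks the 2 Mb limit. The pooled ratio falls from 0.634 in the first 50 kb to 0.150 at 1.5 to 2 Mb in young and old cultures alike, and the median coverage is highest in the first 50 kb.

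The first 100 kb held 4533 sites with a mean ratio of 0.622 ± 0.0145 (SD over 12 cultures), and the stretch from 1 to 2 Mb 11764 sites with 0.161 ± 0.00373. The difference was 0.461 ± 0.0127 and positive in 6 of 6 animals. It was chosen after the levels by distance had been seen and is given as a description without a test. With equal weight for the chromosomes that had sites in both stretches it was 0.230. Chromosome 19 alone gave 2020 of the sites in the first 100 kb, and without it their mean was 0.577 ± 0.0126. On 18 chromosomes both stretches held at least 10 sites, and on 15 of them the first 100 kb had the higher ratio, with a median difference of 0.455 over the 18. Chromosomes 8, 17 and 27 went the other way: on chromosome 27 the ratio was 0.183 in the first 100 kb and 0.641 from 1 to 2 Mb. The 2 Mb limit does not coincide with a change to the chromosome-wide level. The last 100 kb inside it had a mean ratio of 0.202 over 1404 sites, and the first 100 kb outside it 0.363 over 1681 sites.

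The ends of the single chromosomes differed from each other far more than the rests did, but the rests are much longer stretches. Whether the ends differ more than other stretches of their own length was not tested. Their mean ratios ranged from 0.0620 on chromosome 1 to 0.658 on chromosome 19, with an SD of 0.161 over the 29 ends, while the rests ranged from 0.148 to 0.414 with an SD of 0.0692. Within 1 end the cultures differed little, and the largest SD over the 12 cultures was 0.0198, on chromosome 23. The end was more methylated than the rest on 19 chromosomes and less methylated on 10.

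The 4 most methylated ends were those of chromosomes 19 (0.658), 9 (0.615), 4 (0.613) and 21 (0.591). Chromosomes 9 and 4 did not differ beyond the SD of 0.0149 and 0.0190 over the cultures. At these 4 ends between 3.85% and 10.1% of the sites had a ratio below 0.1. The 4 least methylated ends were those of chromosomes 1 (0.0620), 7 (0.0795), 11 (0.103) and 6 (0.131), where between 79.2% and 91.1% of the sites were below 0.1. On each of these 4 the rest of the chromosome had the higher ratio, between 0.215 and 0.311.

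**Figure D2:**
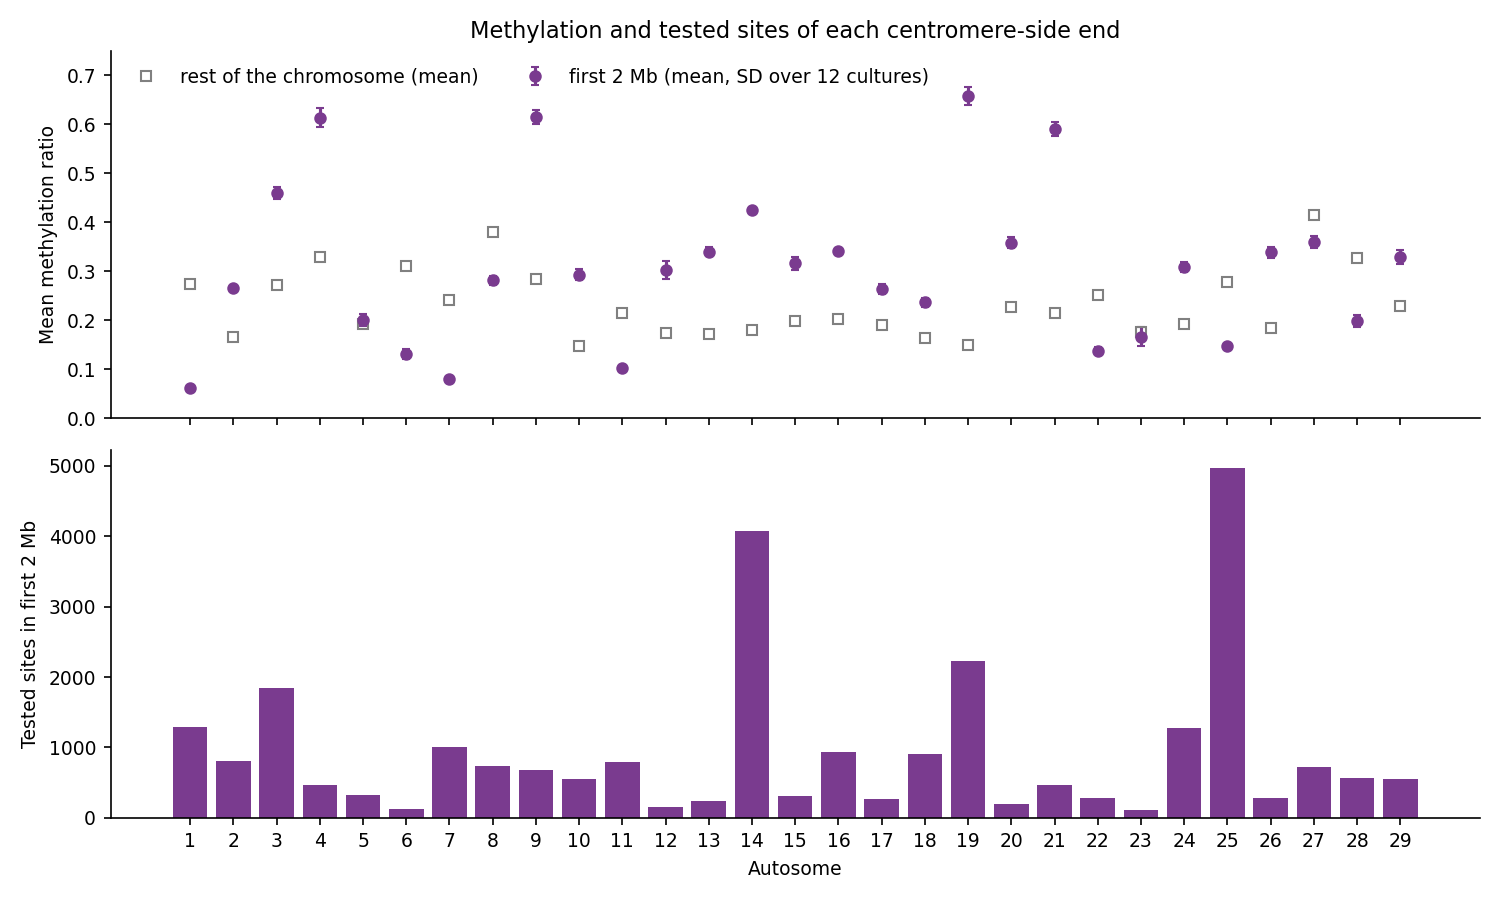
Top, mean methylation ratio of the first 2 Mb (filled circles, with the SD over 12 cultures) and of the rest of each autosome (open squares). Bottom, number of tested sites in the first 2 Mb. Chromosomes 19, 9, 4 and 21 have the most methylated ends, and chromosomes 25 and 14 hold the most sites.

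The number of tested sites was as uneven. Chromosomes 25 (4972 sites), 14 (4073), 19 (2235) and 3 (1851) held the most, and chromosomes 23 (113), 6 (125), 12 (158) and 20 (199) the fewest. Together the ends had 469 sites per Mb against 322 in the rest, but the density was higher at the end on only 13 of 29 chromosomes. Chromosomes 14 and 25 held 33.3% of all end sites. Without chromosome 25, whose end had a ratio of 0.148, the ends averaged 0.358 and the rest 0.231. Without chromosome 19 these values were 0.289 and 0.237. As a mean over the 29 chromosomes, which gives each end the same weight, the ends had 0.308 and the rests 0.232.

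Read coverage was higher at the ends on average, but not on most chromosomes. The mean coverage of the end sites was 1.55 ± 0.0903 times that of the rest in young cultures (n = 6) and 1.57 ± 0.0818 times in old cultures (n = 6). On the log2 scale the ratio was 0.64 ± 0.0721 (6 of 6 animals, exact P = 0.031, adjusted P = 0.0547). As a mean over the 29 chromosomes the log2 ratio was 0.0304 ± 0.0273 (exact P = 0.062), which did not pass the threshold. The mean coverage was higher at the end than in the rest on 12 of 29 chromosomes, and the median coverage on 11. Of the end sites, 3.71% had a mean coverage above 200 reads, against 1.77% in the rest, and without such sites the log2 ratio was 0.25. The log2 ratio differed by -0.0253 ± 0.0671 between young and old cultures (3 of 6 animals above 0, exact P = 0.438).

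To see how the sites were placed, tested positions at most 1 kb apart were joined into blocks. The ends held 133 blocks of at least 50 sites, and these fell into 2 kinds with none between. In 30 blocks the mean ratio was at least 0.5 (from 0.535 to 0.804), and in 103 it was below 0.1. In the rest of the autosomes 365 of 3544 blocks (10.3%) were of the first kind, against 22.6% at the ends, and 114 lay between.

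The methylated blocks were deep and the unmethylated ones were not, and this split was not particular to the ends. The 30 methylated blocks of the ends held 5801 sites on 11 chromosomes, with a median coverage of 88.9 reads (from 30.2 to 1420). The 103 unmethylated blocks held 7543 sites on 23 chromosomes, and their coverage stayed between 11.7 and 19.7 reads. In the rest of the autosomes the methylated blocks had a median coverage of 78.3 reads (from 13.5 to 1016). The unmethylated ones there lay between 9.56 and 36.7 reads. At the ends, methylated blocks had a median distance of 395 kb from the first tested position and unmethylated ones of 1313 kb. After the methylated blocks had been left out on both sides, the ends averaged 0.225 and the rest 0.147. All sites were also grouped by mean coverage. The ends exceeded the rest by 0.0382 at 5 to 10 reads, 0.0603 at 10 to 20 and 0.101 at 20 to 50. The excess was 0.0118 at 50 to 200 reads and 0.0671 above 200 (6 of 6 animals and exact P = 0.031 in each group). What read depth contributes to the levels of the blocks was not tested.

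Chromosome 19 began with the largest methylated stretch. From chr19:91-73065 it held 2020 sites, with a mean ratio of 0.678 and a mean coverage of 61.4 reads. Young cultures ranged from 0.656 to 0.699 with a median of 0.681, and old cultures from 0.657 to 0.715 with a median of 0.672. The ages overlapped, and the young minus old difference was 0.00115 ± 0.0140 (3 of 6 animals, exact P = 0.875). Only 1.44% of these sites were below a ratio of 0.1. The first 100 kb of chromosome 9 (593 sites, ratio 0.680) and of chromosome 4 (359 sites, ratio 0.673) had nearly the same level, with overlapping ages and P of 0.938 and 0.562 by the same exact test.

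On chromosome 3 the methylated blocks lay farther in, within chr3:693017-1050004, and held 1421 sites with a mean ratio of 0.569 and a mean coverage of 135 reads. Their level was lower than that of chromosome 19 in each of the 12 cultures, and young (0.551 to 0.595, median 0.574) and old cultures (0.548 to 0.587, median 0.562) overlapped. On chromosome 14 the level changed along the end. Its methylated blocks, within chr14:290483-577273, had 828 sites with a mean ratio of 0.772 and a mean coverage of 201 reads. Its unmethylated blocks, within chr14:1506763-1946069, had 833 sites with a mean ratio of 0.0237 and a mean coverage of 14.3 reads. Chromosome 25 had 31 unmethylated blocks and none of the other kind. Their 2286 sites had a mean ratio of 0.0185, and young cultures (0.0155 to 0.0201, median 0.0190) overlapped with old ones (0.0178 to 0.0187, median 0.0183).

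**Figure D3:**
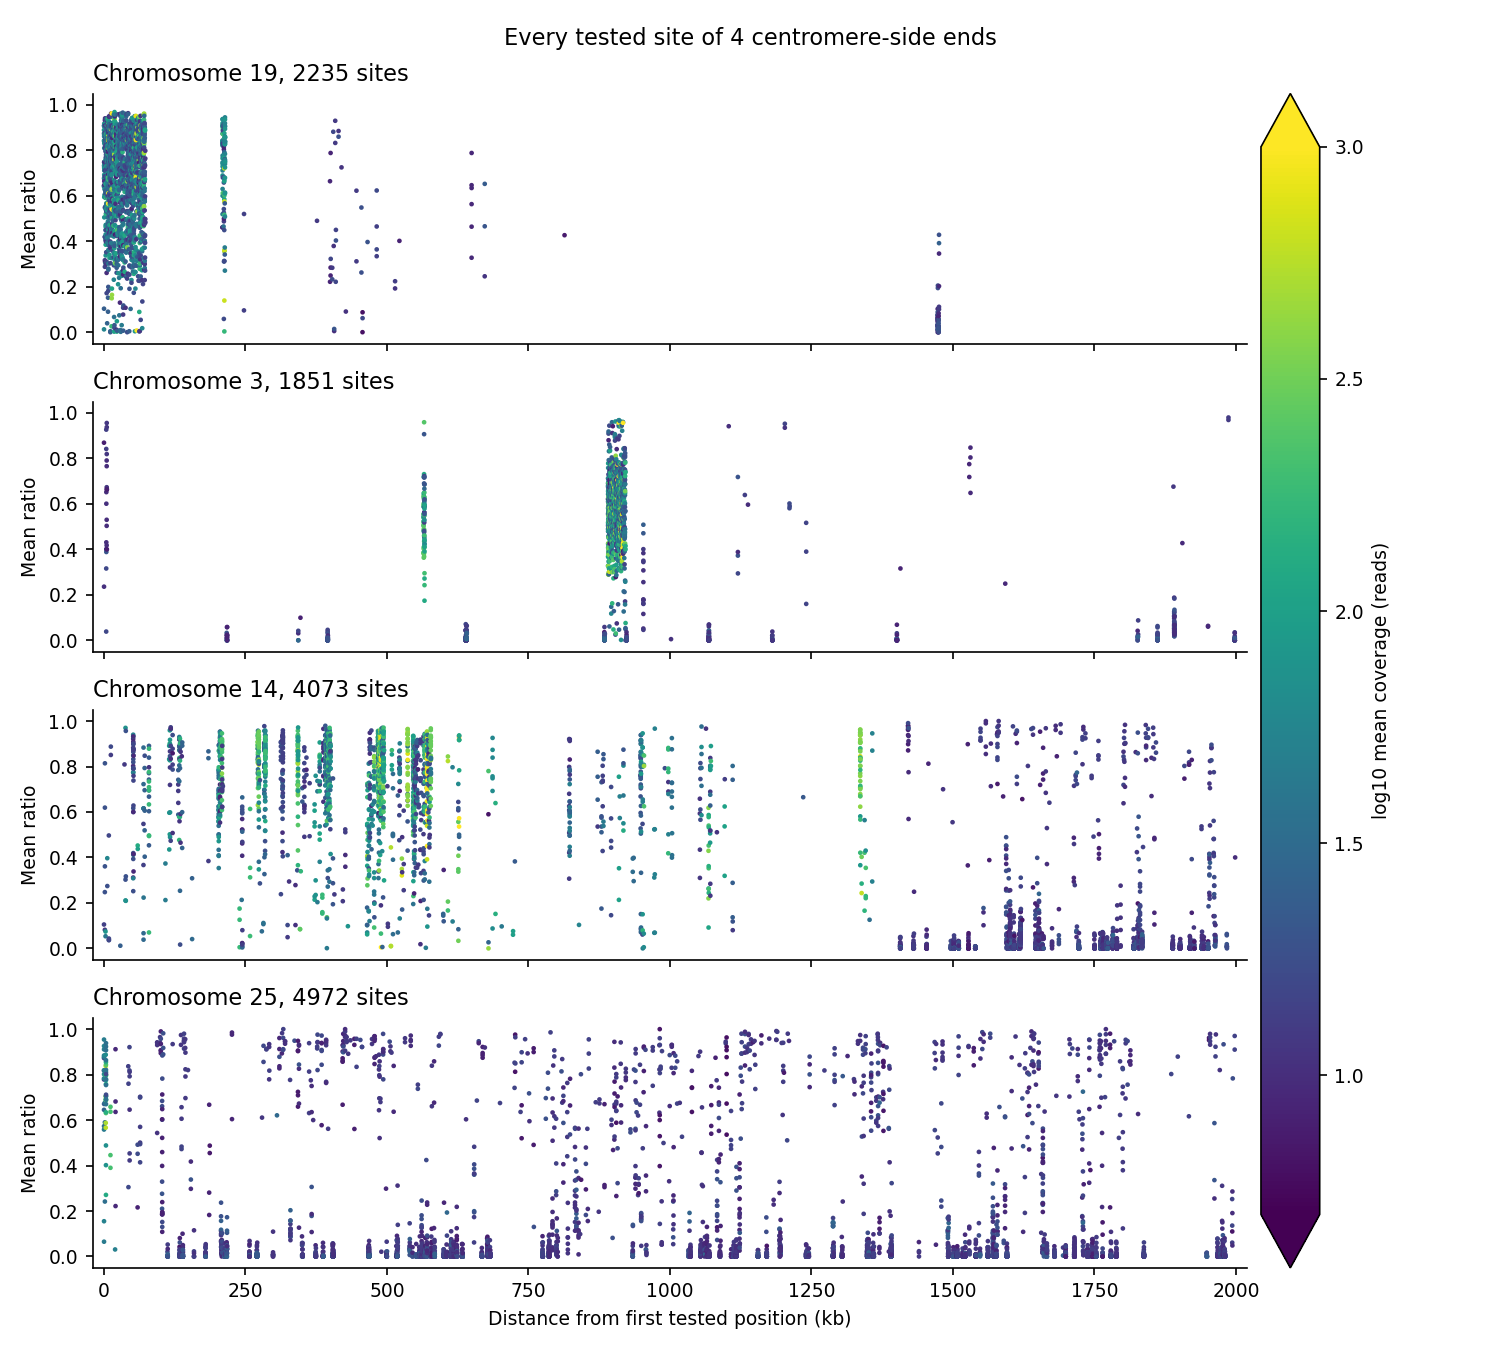
Mean methylation ratio of every tested site over 12 cultures against its distance in kb from the first tested position, for the ends of chromosomes 19, 3, 14 and 25; the colour gives the log10 of the mean coverage in reads, capped at both ends of the scale. Chromosome 19 starts with a dense methylated stretch, chromosome 3 has one further in, chromosome 14 passes from deep methylated to shallow unmethylated blocks, and chromosome 25 has a methylated first 100 kb (88 sites, mean ratio 0.678) and its unmethylated blocks farther in.

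The deepest block was the 1 of these in which single cultures stood apart. Its 108 sites, at chr28:1893813-1894899, were covered by 1420 reads on average, and their mean ratio was 0.673. Young cultures ranged from 0.555 to 0.753 with a median of 0.691, and old cultures from 0.545 to 0.739 with a median of 0.714. The lowest values were those of young culture 2 (0.555), young culture 1 (0.567) and old culture 1 (0.545), so that animal 1 was low at both ages. The age difference was -0.0167 ± 0.0490 (3 of 6 animals above 0, exact P = 0.469). It held 108 of the 563 tested sites of that end, whose mean coverage was 285 reads beside a median of 15.4.

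Whether the ends changed with the age of the animal was asked in the paired comparison. Their mean ratio was higher in the young culture of 4 of 6 animals, with a mean difference of 0.00482 ± 0.00655 (exact P = 0.156, adjusted P = 0.219). The rest of the autosomes gave 0.00439 ± 0.00562, in the same 4 animals. The difference between the ends and the rest in this respect was 0.000437 ± 0.00247 (3 of 6 animals above 0, exact P = 0.781). Animals 1 and 5 had the higher level in the old culture, by 0.00363 and 0.00320 at the ends. A difference in age response between ends and rest was therefore not detectable with 6 animals, and its sign depended on the processing.

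**Figure D4:**
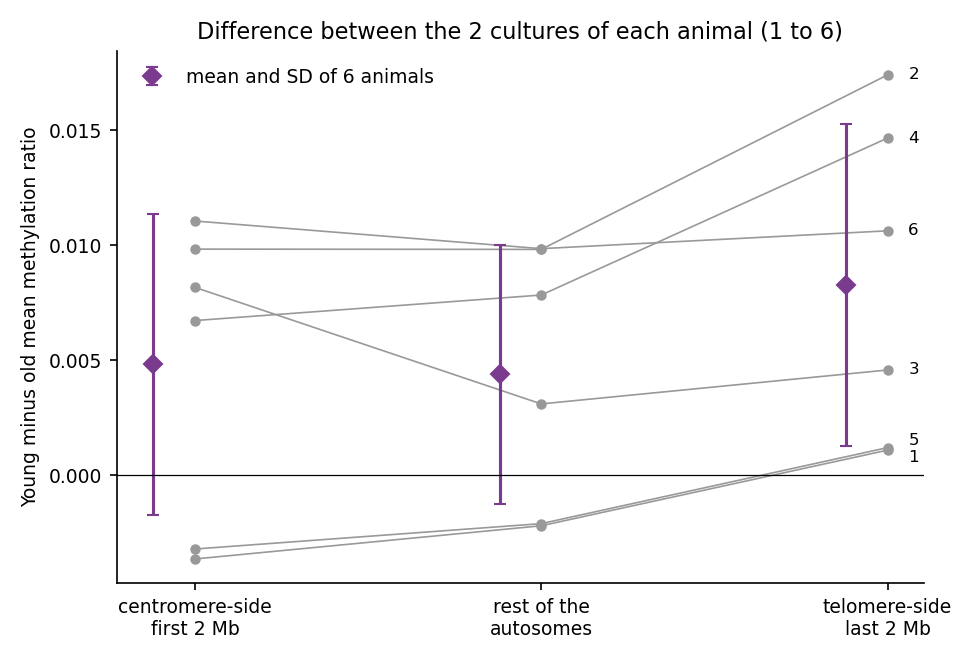
Young minus old difference in mean methylation ratio for each of the 6 animals (grey, joined and numbered) at the centromere-side ends, in the rest of the autosomes and at the telomere-side ends, with the mean and SD. Animals 1 and 5 lie below 0 at the centromere-side ends and in the rest, and all 6 lie above 0 at the telomere-side ends, which are also part of the rest.

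The single ends were compared in a fit of limma over 1220 windows of 2 Mb with at least 20 sites, with the animal as a block. An adjusted P below 0.05 was reached by 11 windows (0.902% of all) and by 0 of the 29 ends, whose smallest adjusted P was 0.0674. The count over all windows rested on single animals: it was 0 without animal 1, 3, 4 or 6, 11 without animal 2 and 4 without animal 5. It was also 0 with read weighting, 1 with at least 10 reads and 42 without the block. Without adjustment, 6 ends (20.7%) and 253 of all windows (20.7%) had a P below 0.05, which is the same share. The smallest P values belonged to the ends of chromosome 8 (difference 0.0119, SE 0.00239) and chromosome 24 (0.0146, SE 0.00326, adjusted P = 0.0813), followed by chromosomes 27, 6 and 7. On these 5 chromosomes the young culture was higher in 6 of 6 animals. The mean was higher in young cultures at 23 of 29 ends (79.3%) and in 82.0% of all windows.

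The size of the difference between the cultures of an animal, whatever its sign, was larger at the ends. It averaged 0.0720 ± 0.00319 per site at the ends and 0.0605 ± 0.00219 in the rest, a difference of 0.0115 ± 0.00133 (6 of 6 animals, exact P = 0.031, adjusted P = 0.0547). This was then compared within classes of level, coverage and site density. Among sites with a mean ratio below 0.1 the difference between ends and rest was -0.000668, from 0.1 to 0.5 it was 0.000453, from 0.5 to 0.9 it was -0.00193, and above 0.9 it was -0.00602. In none of these 4 classes was the difference larger at the ends beyond the threshold, and above 0.9 it was smaller in 6 of 6 animals (exact P = 0.031). By mean coverage it was larger by 0.0139 at 5 to 10 reads, 0.0143 at 10 to 20 and 0.0141 at 20 to 50 (exact P = 0.031 in each). It was 0.00201 at 50 to 200 reads (exact P = 0.375) and 0.00234 above 200 (exact P = 0.469). In the 4 groups by tested positions within 250 bp it ranged from 0.00394 to 0.0160 (exact P = 0.031 in each). What level or depth contributes was not tested.

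Single sites were called differentially methylated when the methods' paired t-test gave an unadjusted P below 0.05 and the mean difference was at least 0.10. At the ends 516 of 27180 sites (1.90%) met this rule, against 1.68% of all tested sites and 1.65% in the rest of the autosomes. Of these, 350 were more methylated in young cultures (1.12% of all tested sites are called in that direction) and 166 in old cultures (0.567% of all). In the rest 66.8% of the called sites were higher in young cultures, and at the ends 67.8%. These shares are close to the background. No site of the ends passed Benjamini-Hochberg adjustment by the paired test (0 sites, smallest adjusted P = 0.470), and 926 had an unadjusted P below 0.05 (3.41%, beside 2.87% of all tested sites). Limma with the animal as a block gave 0 and 1096, and its share over all tested sites was not counted. With the higher minimum of 10 reads, 124 of 9996 end sites (1.24%) were called, beside 1.06% of all tested sites of that depth.

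The called sites were not spread by level or distance as the tested ones were. Their mean ratio was 0.505, and 6.98% had a ratio below 0.1. In the rest of the autosomes the called sites had 0.464 and 7.97%. The minimum difference of 0.10 by itself leaves few sites near a ratio of 0 to be called. In the first 100 kb 111 of 4533 sites (2.45%) were called, 59.5% of them higher in young cultures. There the called differences were small, and 6.31% reached 0.25. Over all end sites 102 of the 516 did (19.8%), which is 0.375% of the sites tested, beside 0.39% of all tested sites. The opposite strand of the CpG had also been tested at 179 of the 516, and it differed in the same direction at 128 (71.5%), beside 3522 of 4952 (71.1%) in the rest of the autosomes. In the first 100 kb this was so for 14 of 23 sites. All 6 animals went the same way at 222 of the 516 (43.0%) and at 5585 of the 12988 (43.0%) called in the rest.

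Called sites that follow each other within 100 bp in 1 direction were collected into runs. The ends held 12 runs of at least 3 sites, with 67 called sites on 7 chromosomes, and all 12 were more methylated in young cultures. In the rest of the autosomes 425 of 515 such runs (82.5%) had this direction. Runs took in 13.0% of the called sites at the ends and 16.1% in the rest. The age difference itself selected them, so the values below describe them and carry no test. The 9 with the most sites are given, the last 3 being equal in number, each as the mean over all tested sites between its first and last called site.

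The longest run, in a CpG island at chr7:1349478-1349659, had 10 called among 23 tested sites. Young cultures ranged from 18.8 to 43.0% methylation with a median of 38.5%, and old cultures from 11.3 to 19.8% with a median of 14.5%. Young culture 2 was the exception, at 18.8%, and lay below its old counterpart, so that 5 of 6 animals went the same way. The run at chr8:1174815-1174898, also in a CpG island, had 9 called among 10 tested sites. Its called sites had a mean coverage of 10.5 reads, the lowest of the runs given here. Here young cultures (31.9 to 52.2%, median 46.2%) and old cultures (8.50 to 20.5%, median 14.2%) did not overlap. At chr18:1230871-1231018, with 8 called among 11 tested sites and no annotated gene, young cultures (33.5 to 45.5%, median 41.0%) and old cultures (7.45 to 21.5%, median 11.4%) were again apart.

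The run at chr3:1081424-1081482 lay in an intron of RCSD1, which encodes a protein that binds the actin capping protein CapZ. Its 7 called among 12 tested sites had 30.1 to 48.4% methylation in young cultures (median 39.5%) and 17.1 to 25.9% in old ones (median 21%), with no overlap. Its called sites had a mean coverage of 13.8 reads, against 135 in the methylated blocks of the same end. The run at chr20:613614-613665 lay in an intron of SLIT3, a secreted ligand of the ROBO receptors that guides migrating cells and axons. Its 4 called among 6 tested sites had 35.8 to 71.0% in young cultures (median 62.8%) and 21.2 to 50.3% in old ones (median 35.0%), and the ages overlapped although all 6 animals went the same way.

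Chromosome 25 held 3 of the 9 runs, all in CpG islands. At chr25:1659484-1659608 young cultures spread from 27.0 to 87.3% (median 64.9%) and old ones from 21.4 to 39.0% (median 29.9%), the widest range of any of these runs. Its called sites had a mean coverage of 11.4 reads. The neighbouring run at chr25:1659318-1659366 had 22.3 to 55.0% (median 41.3%) against 3.33 to 21.2% (median 9.75%), without overlap. At chr25:835214-835222 the values were 19 to 42.2% (median 28.8%) and 7.25 to 23.2% (median 12.9%). The run at chr24:964954-964975 had 27.2 to 69.2% (median 43.9%) in young and 4.00 to 20.4% (median 17.1%) in old cultures, without overlap, but 4 of its 5 positions had an even coverage in all 12 cultures. Such positions were 13.3% of the end sites and 14.8% of the rest, and the methods count overlapping mates separately.

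**Figure D5:**
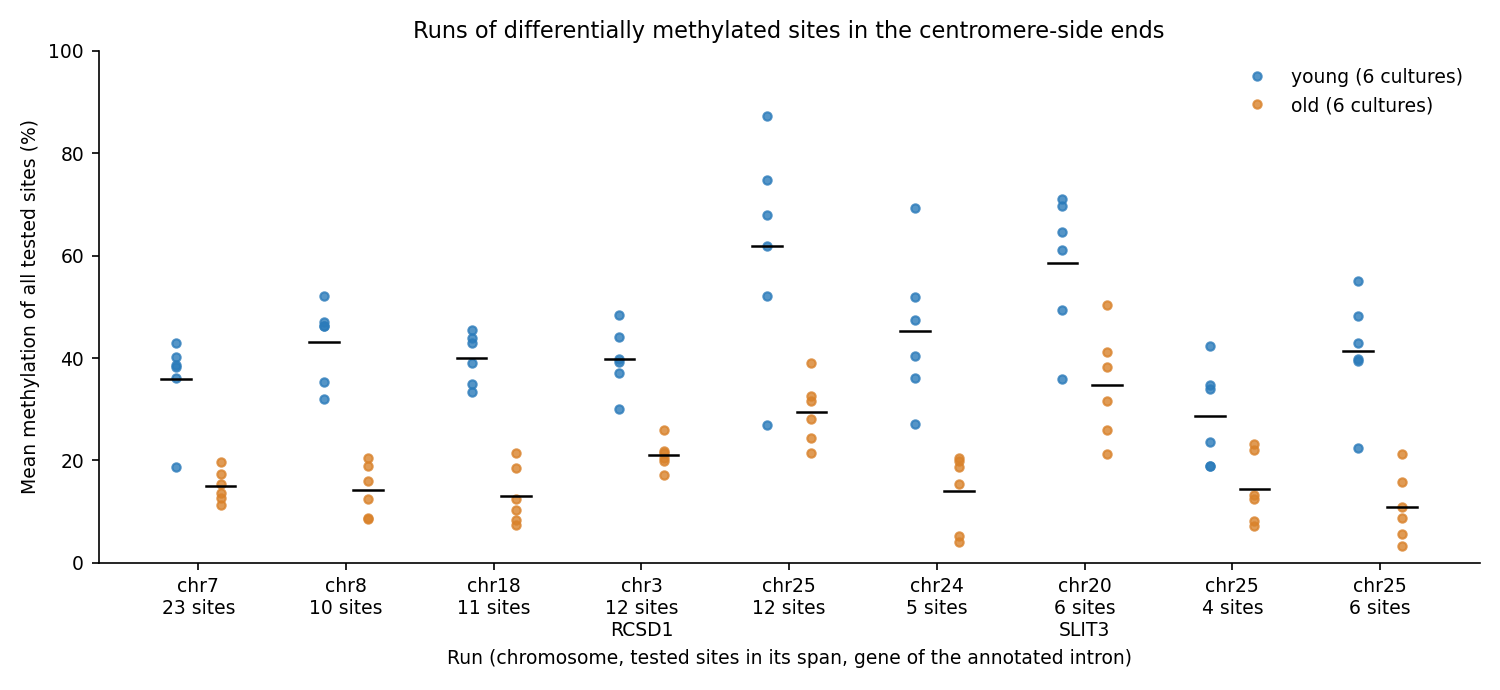
Mean methylation in percent over all tested sites of each of the 9 runs, 1 point per culture (blue young, orange old) with a black line at the mean of 6. Young cultures lie higher on average in every run, since runs were chosen by this difference. In 5 of the 9 the ages do not overlap, which the same choice favours, and no such share was counted for runs in the rest of the autosomes.

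Single called sites were also named where no culture had under 10 reads and no animal went the other way. There were 60 such sites, 47 higher in young and 13 in old cultures. The 8 with the largest difference in each direction were named, at most 1 per 1 kb, and since they were selected on the difference they carry no test either. Those higher in young cultures differed by 25.3 to 46.8 percentage points. The largest difference was at chr25:1659318, inside a run given above, where young cultures ranged from 25 to 80% (median 59%) and old ones from 0 to 29% (median 5.50%). At chr18:1230891, also inside a run, young cultures (53 to 83%, median 64.5%) and old ones (14 to 33%, median 18%) were apart by 43.8 points. The others were chr24:964975, chr7:1349543, chr25:59975, chr24:902858, chr20:613625 in SLIT3 and chr24:1038351 in NFATC1. Of these, chr24:964975, chr25:59975 and chr24:902858 had an even coverage in all 12 cultures. The opposite strand had been tested at 5 of the sites higher in young cultures and differed in the same direction at each. At chr25:59975 and chr24:902858 it had not been tested, and the tested sites within 500 bp differed by much less on average. At chr25:59975 this mean was 4.42 points, beside 37 at the site.

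The 8 sites higher in old cultures were drawn from fewer candidates (13, beside 47 for young cultures). They differed by 12.8 to 26.8 points, and the ages overlapped at each. The largest was at chr24:867034 in a CpG island, with 30 to 73% (median 47%) in young and 60 to 86% (median 76.5%) in old cultures, and its partner strand differed by -27.3 points as well. The next were chr11:1022052, where the partner strand went the other way by 7 points, and chr16:1635879, where it did so by 3.67 points. Further ones lay within the methylated blocks of chromosome 3 (chr3:1038145 and chr3:1044885) and chromosome 19 (chr19:28748), and between those of chromosome 14 (chr14:403993). There the mean of the tested sites within 500 bp differed by at most 1.42 points in either direction, so the neighbours did not share the difference. The last was chr7:145045. Of all 16 named sites 2 were annotated to a gene, and 5 had ages that did not overlap, each of these 5 higher in young cultures. The choice by size and direction favours such separation, and its share among all called sites was not counted.

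The authors' list of positions with gene annotation held 514 end sites, of which 18.5% (95% Wilson interval 15.4 to 22.1%, counting error only) were in a promoter, exon or intron. Promoters had 3.70% (2.38 to 5.70%), beside 7.46% of the listed sites in the rest, exons 5.45% beside 7.43%, and introns 12.1% (9.52 to 15.2%) beside 21.2%. CpG islands held 24.7% at the ends and 24.8% in the rest. Tested sites outside this list carry no annotation, so the shares cannot be set against all tested sites.

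The list named 54 genes at the ends, and 8 had at least 3 end sites. NFATC1, a transcription factor activated by calcium signalling in lymphocytes and other cells, had 11, all more methylated in young cultures, 10 of them intronic. Over the 146 tested sites of its listed span, chr24:1037988-1100874, young cultures had 31.8 to 37.7% methylation (median 34.2%) and old cultures 27.6 to 30.1% (median 28.2%), and the 135 sites that were not listed differed by 4.41 points in the same direction. RCSD1 had 7, all in the run described above. SLIT3 had 6, of which 4 were higher in young cultures, and over its span the ages overlapped (67.3 to 76.3% and 64.6 to 71.1%).

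The other genes gave no common direction. VAC14, a scaffold of the complex that makes a phosphoinositide of endosomes, had 6 sites, 5 of them higher in young cultures, but the 110 other sites of its span differed by -0.70 points. OPLAH, an enzyme of glutathione turnover, had 4 sites in exons, 2 in each direction, and 3 of them had an even coverage in all cultures. GPT, the cytosolic alanine aminotransferase, had 3 sites, 2 higher in young cultures, and CA10, a carbonic anhydrase relative without enzymatic activity, had 3, of which 1 was. PLEKHA6, which carries a pleckstrin homology domain, had 3 intronic sites, all higher in young cultures, yet the 6 other sites of its span differed by 2.58 points and the ages overlapped (65.0 to 97.0% and 66.6 to 79.4%).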

How the data were processed

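RRBS libraries of 12 fibroblast cultures were made with MspI and TaqαI. The authors' provider checked and trimmed the reads (FastQC 0.11.1, Trim Galore 0.3.7), aligned them to bosTau8 with Bismark 0.13.1 and deposited, per position and strand, the methylation ratio as a fraction with 2 decimals and the coverage as a count of reads, neither of them normalized. Repeats, duplicate reads and the depth shape such values, and intervals cover counting error only. The authors' columns of mean difference, P and class hold their own comparison and were not used, except that the signs of the difference and class served to read A as young and B as old, on which each direction given here rests. Their list served for annotation.

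Sites were kept as deposited, with at least 5 reads in every culture, the lowest value in the table. The members, lists and tests were chosen with earlier results of these data known. The mean ratio of a culture weighted every site equally. Tests were two-sided: the methods' paired t-test per site (unadjusted P below 0.05, mean difference at least 0.10), the exact sign-flip permutation test over 64 sign patterns of 6 animals, and limma on windows, with Benjamini-Hochberg adjustment over all sites or windows. The paired t-test, the sign-flip test and limma were tried on simulated single sites with large planted differences. These held read-sampling noise but no variation between animals. The summaries of ends and rest, windows, blocks, runs and spacings were not simulated. Named sites were the 8 largest per direction among those with at least 10 reads and 6 concordant animals, 1 per 1 kb, and named runs the 8 with the most sites, ties included; named chromosomes were the 4 highest and lowest in ratio and in sites, and named genes those with at least 3 listed sites. The lists of methylated and unmethylated blocks and the chromosomes shown by region were chosen after the values had been seen.

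Each culture number stands for 1 heifer, sampled at both ages. Their deviations from the age means correlated across end sites with a median of 0.0439 (0.00428 to 0.0738, 6 pairs), and those of different animals with -0.00653. The columns 1A to 6A were read as young and 1B to 6B as old, from the numbers in the labels and the sign of the authors' classes. Alternatives were windows of 1 and 5 Mb, at least 10 reads, equal weight for chromosomes, read weighting, no sites above 200 reads, merged strands, no positions even in all cultures, no pairing and each animal left out. All 54 annotated genes were found by name in a RefSeq gene table of another assembly, whose coordinates were not used. Sequences were not analysed here. Software was Python 3.11.15, numpy 2.4.6, pandas 2.3.3, scipy 1.17.1, matplotlib 3.10.9, R 4.3.3 and limma 3.58.1.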

Additional observations from a re-analysis of the deposited data

Results flagged for a closer look

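Of 96 groups of 6 cultures looked at, 5 had 1 culture that stood farther from the others than Dixon's limit of 0.625 of the range allows, and chance alone gives about 1 in 20. At chr7:1349543, inside the longest run, old culture 4 had 38% methylation and the other old cultures 0 to 13%. The end of chromosome 2 had a mean ratio of 0.254 in young culture 5 and 0.265 to 0.272 in the other young cultures. On chromosome 6, one of those with the fewest sites, the end had 0.106 in old culture 3 and 0.125 to 0.134 in the others. On chromosome 23, with the fewest sites of all, it had 0.222 in young culture 2 and 0.144 to 0.165 in the others. On chromosome 29 it had 0.293 in old culture 3 and 0.320 to 0.336 in the others. None of these ends passed adjustment in the window comparison, and their part in the results was not tested.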

How the results depend on the processing

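With all 6 animals, the level of the ends against the rest and the size of the differences within animals kept direction and side of the unadjusted threshold under the alternatives run for them, and so did the level against the telomere-side ends with at least 10 reads and as a mean over chromosomes, the only 2 tried there. The excess over the rest ranged from 0.0334 with 5 Mb windows to 0.209 with 1 Mb windows. With 5 animals the exact test cannot go below 0.062, so these results then missed the threshold by construction. Leaving out 1 animal gave 0.0865 to 0.0871 for ends minus rest, 0.0585 to 0.0605 for ends minus telomere-side ends, 0.0112 to 0.0119 for the difference within animals, and 0.62 to 0.66 for the log2 coverage ratio. The first 100 kb minus 1 to 2 Mb, a value without a test, was 0.457 to 0.464 with 1 animal left out, 0.480 with at least 10 reads, 0.415 without chromosome 19, 0.466 without sites above 200 reads, 0.475 without even positions and 0.230 with equal weight for chromosomes. The log2 coverage ratio was 0.0304 (exact permutation P = 0.062) with equal weight for chromosomes. The young minus old difference at the ends (0.00358 to 0.00651 with 1 animal left out) kept its sign and missed the threshold in each alternative run, but was 0.00247 with at least 10 reads and 0.000554 (exact P = 0.938) with read weighting. Ends minus rest in this difference turned to -0.000322 with 1 Mb windows, -0.000251 with at least 10 reads, -0.0129 with read weighting and -0.000488 without animal 3 (up to 0.000813 without animal 1). The age difference of the coverage ratio turned to 0.00624 with 1 Mb windows and 0.00275 without sites above 200 reads, and ranged from -0.0386 to -0.00522 with 1 animal left out. Called end sites numbered 926 with no minimum difference, 102 with a minimum of 0.25, 124 with at least 10 reads, 317 in 1 Mb windows, 971 in 5 Mb windows, 0 after adjustment and 463 to 509 with 1 animal left out. Limma called 596 end sites with the animal as a block (2.19%, beside 1.90% in the rest) and 588 without the pairing (2.16%, beside 2.01%). Without the block the young minus old difference at the ends, 0.00482, had an exact permutation P of 0.143, and 0 ends passed in the window fit. Of the 16 named sites 14 had a permutation P below 0.05 without it. They were chosen by their difference, so that count shows nothing about the pairing. For level and coverage, only the age differences were run without the pairing, and these missed the threshold with and without it. The level and coverage results at the smallest P were not run without it. The window fit in limma gave 0 adjusted calls among the ends under each alternative, each animal left out included, with 3 to 8 ends below an unadjusted P of 0.05. With a median coverage of 12 to 19 reads, single ratios are coarse.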

Other observations

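Pairs of tested positions were counted by their spacing in 9 regions of blocks. In the blocks of chromosome 3 (735 positions on the plus strand), 279 pairs of tested positions were 682 to 686 bp apart, while the median over spacings of similar length was 86.5 pairs. The highest counts within a few bp of 2 and 3 times this spacing were 132 and 143 pairs, against medians of 78 and 76. In the first 100 kb of chromosome 4, 22 pairs were 1400 to 1404 bp apart, against a median of 4, and up to 10 pairs near 2 times that spacing, against 2. The spacings were searched from 300 to 2889 bp after the blocks had been seen, and the largest excess was kept, so they are given as a description without a test. In 6 other regions the best spacing gave a smaller excess, without a split between methylated and unmethylated blocks. The counts were 101 against a median of 63 in the first 100 kb of chromosome 19, 25 against 10.5 in that of chromosome 9, and 33 against 15 and 24 against 14 in the methylated blocks of chromosomes 14 and 21. In the unmethylated blocks they were 26 against 12 on chromosome 14 and 36 against 19 on chromosome 25. In the deepest block the best spacing was the shortest one searched, with 5 pairs against 8.

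Called sites were most frequent at the ends of chromosomes 29 and 24. With 48 of 1274 sites (3.77%) chromosome 24 had the second highest share after chromosome 29 (21 of 549 sites, 3.83%). The rests of these chromosomes had 1.70% and 1.94%. The smallest shares were at chromosomes 22 (0.350%) and 13 (0.426%), whose rests had 1.84% and 1.55%. On chromosome 29, 19 of the 21 were more methylated in young cultures, and on chromosome 18, 26 of 28, beside 66.8% of the called sites in the rest of the autosomes. Such sites are not independent, since chromosome 18 held runs of 8 and 3 called sites and NFATC1 on chromosome 24 had 11 listed ones. The share of called sites was higher at the end than in the rest on 14 of 29 chromosomes. These chromosomes were picked by their values.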
